A study of Canis lupus familiaris with 17 samples.

Results

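The naïve CD4 T cells of canine blood were examined in single-cell RNA-seq libraries from 17 dogs. They were picked cell by cell on raw UMI counts, a UMI being a tag that marks 1 captured mRNA molecule. A barcode, which stands for 1 droplet and usually 1 cell, was kept at over 200 and under 4500 genes, over 500 and under 20000 UMIs and under 10% mitochondrial UMIs. It was called a naïve CD4 T cell when it held at least 1 UMI each of CD3E, CD4, LEF1 and CCR7 and none of CD8A, MS4A1, CTLA4, CCL5 or S100A12. This gate selected 4681 of 84345 barcodes, or 5.55%. The CD4 T cell gate, which asked for CD3E and CD4 without CD8A, MS4A1 or S100A12, held 13557 barcodes, of which naïve CD4 T cells made up 34.5%.

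The blood came from 7 healthy client-owned dogs with recorded ages of 7 to 9 years, rounded, and from 10 treatment-naïve dogs of 6 to 12 years with primary osteosarcoma (OS). Leukocytes were isolated on a density gradient, red cells were lysed, and 1 droplet library was made per dog, so that each dog is 1 biological replicate. Healthy dogs gave 2157 naïve CD4 T cells out of 6240 gated CD4 T cells, and OS dogs gave 2524 out of 7317. Each dog contributed 85 to 411 of them, with a median of 323. Their median depth per dog lay between 4383 and 7445 UMIs and between 1745 and 2548 genes per cell.

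A naïve CD4 T cell has left the thymus but has not yet met its antigen. It circulates between blood and lymph nodes, which it enters with the help of the chemokine receptor CCR7 and leaves through the lipid receptor S1PR1. LEF1 and TCF7 are transcription factors of the Wnt pathway that are kept high in this resting state, and IL-7 sustains survival through its receptor IL7R. After activation, helper cells lose much of this program and express costimulators, adhesion molecules and chemokine receptors that direct them to tissue.

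The libraries held 1239 to 7070 barcodes within the limits and 7740230 to 56510134 UMIs in total, and the dog with the fewest barcodes was OS dog 3. Any pair of libraries shared at most 16 barcode sequences, and 1 naïve CD4 T cell barcode sequence was seen in more than 1 library. Scrublet, a doublet caller, was used to rank barcodes, and 180 naïve CD4 T cells (3.85%) fell among the putative doublets at the expected rate. They were kept, and the results were recomputed without them.

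CD4, LEF1 and CCR7 chose these cells, so their UMIs are given as a description. CD4, the coreceptor for MHC class II, was captured as a single UMI in 46.9% of the cells. CCR7 was captured as a single UMI in 37.2% of them. LEF1, in contrast, reached 3 or more UMIs in 92.3%. The gate therefore rested on 1 molecule of CD4 or CCR7 in many cells and rarely on 1 molecule of LEF1.

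RGS10 and CSTA, the markers that the gate did not use, were both present. RGS10 encodes a regulator that switches off G protein signaling, and CSTA encodes cystatin A, an inhibitor of cysteine proteases. Levels are given as UMIs per 1000000 UMIs of the summed cells of a dog (CPM). RGS10 had a lowest, median and highest level of 261, 354 and 432 CPM in naïve CD4 T cells over 17 dogs. It was at 0, 13.6 and 42.0 CPM in CD4 T cells with neither LEF1 nor CCR7 (LEF1-CCR7- cells), and the ranges of the 2 gates did not touch. CSTA ranged from 200 to 558 CPM with a median of 330 in naïve CD4 T cells. In LEF1-CCR7- cells CSTA ranged from 0 to 100 CPM with a median of 38.7. Both genes were thus higher in the gated cells than in LEF1-CCR7- cells in each of the 17 dogs. The study lists both for naïve CD4 cells and chose that list on these dogs. The comparison cells were also picked for lacking LEF1 and CCR7, so this is not independent evidence for the gate.

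Detection per cell gave the same order when every barcode was thinned at random to 2000 UMIs. RGS10 was then detected in 46.3% of naïve CD4 T cells (95% Clopper-Pearson interval 44.8 to 47.7%, which covers counting error only). B cells, gated on MS4A1, had RGS10 in 0.897% of barcodes, and myeloid cells, gated on S100A12, in 9.94%. The background of free RNA was not measured on its own. CSTA was detected in 43.5% of naïve CD4 T cells, in 0.142% of B cells and in 1.91% of myeloid cells. Naïve CD8 T cells, taken with the mirrored gate for CD8A in place of CD4, had RGS10 in 56.3% and CSTA in 30.2%. RGS10 and CSTA were therefore not restricted to the CD4 lineage.

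**Figure D1:**
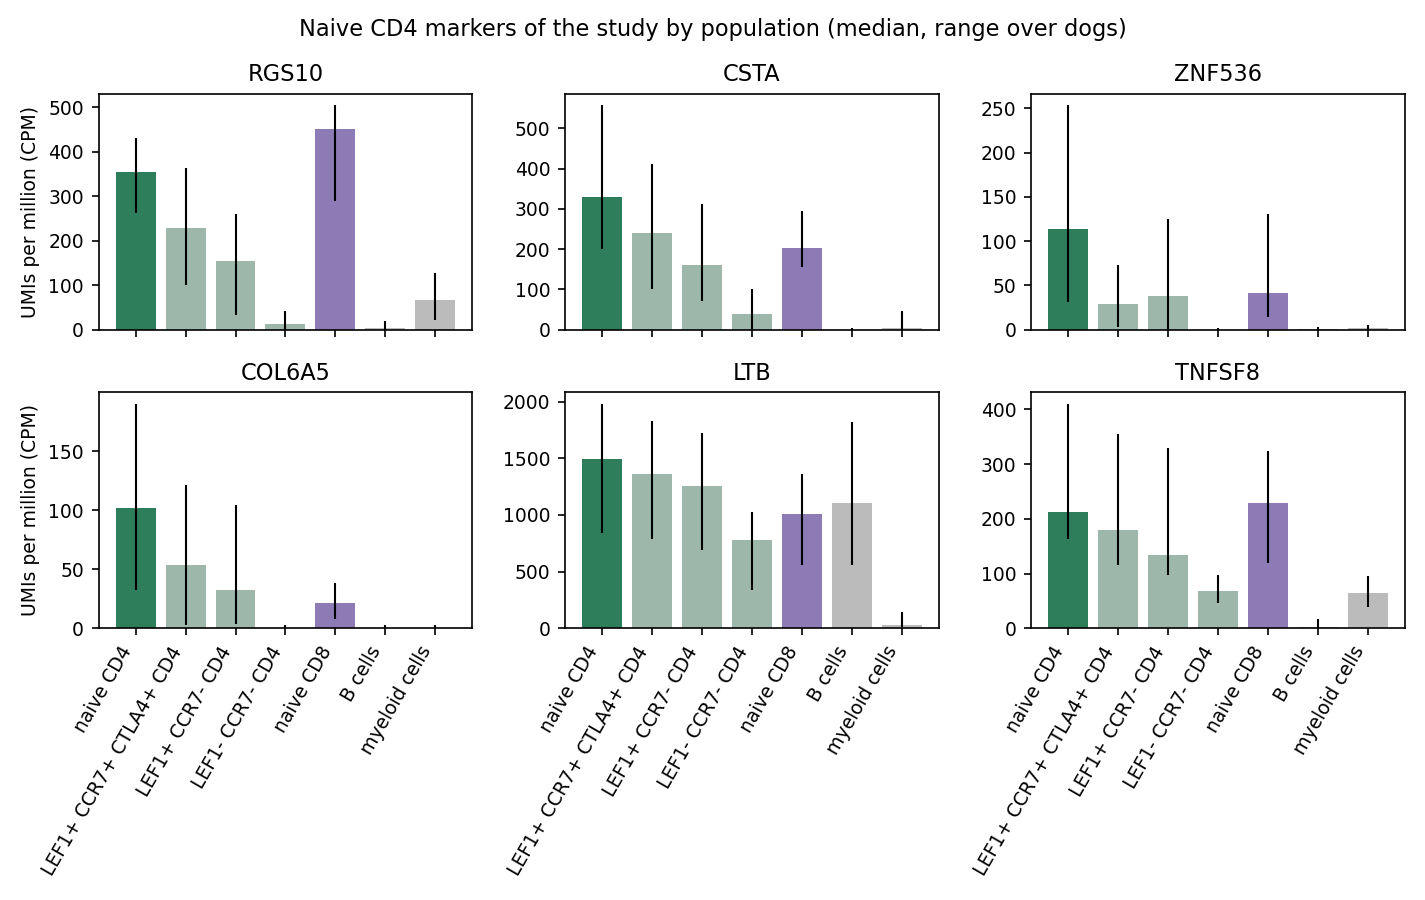
Levels of 6 genes that the study lists for naïve CD4 T cells and that the gate did not use, in CPM (bars, median over dogs; lines, lowest to highest dog). Dark green is the naïve CD4 gate, light green the other CD4 gates, purple naïve CD8 T cells, and gray B and myeloid cells; ZNF536 and COL6A5 had medians of 113 and 102 CPM in naïve CD4 T cells and of 0 in LEF1-CCR7- cells.

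Markers of other blood cells differed in level from list to list. The cytotoxic list (6 genes outside the gate, among them GZMB and KLRD1) summed to 5.32 to 61.8 CPM in naïve CD4 T cells of healthy dogs and to 2.63 to 41.9 CPM in those of OS dogs. The B cell list had an exception in CD79A, a part of the B cell receptor, whose entry stood at a median of 9786 CPM in naïve CD4 T cells and of 6282 CPM in B cells. CD79B, its partner in that receptor, had 3 UMIs over all naïve CD4 T cells. The B cell list without CD79A, a sum chosen after the values were seen, came to 1.82 to 78.0 CPM in naïve CD4 T cells of healthy dogs and to 1373 to 3595 CPM in their B cells. The entry named CD79A was thus no marker of B cells in these files.

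Transcripts of the myeloid list were present in the naïve CD4 sums of all dogs. The 8 myeloid genes outside the gate summed to 259 to 1191 CPM in naïve CD4 T cells of healthy dogs and to 439 to 2619 CPM in those of OS dogs, and 1 of the 8, FCN1, was at 0 here and in myeloid reference cells (gated on S100A12) alike. S100A8, a calcium-binding protein of neutrophils and monocytes, made up much of this sum and stood at a median of 537 CPM in naïve CD4 T cells. S100A8 reached a median of 3853 CPM in LEF1-CCR7- CD4 T cells and only 56.0 CPM in B cells, so its level differed among lymphocytes. LYZ (lysozyme), at 19.6 to 1223 CPM over dogs, was the other abundant myeloid transcript. Platelet genes summed to 4.91 to 156 CPM in healthy dogs. Erythroid genes were at a median of 0.380 CPM in healthy and of 0 CPM in OS dogs, with a highest value of 33.4 CPM.

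The cells just inside the gate differed in level from the cells well inside it. In the 1739 cells with exactly 1 CCR7 UMI, RGS10 had a median of 299 CPM over dogs. In the 2942 cells with 2 or more CCR7 UMIs, RGS10 had a median of 366 CPM. Just outside the gate, RGS10 stood at 155 CPM in the 2566 CD4 T cells with LEF1 and no CCR7, and at 228 CPM in the 2178 cells that passed LEF1 and CCR7 but held CTLA4. RGS10 thus had a lower median at each step away from the deepest part of the gate.

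Other genes outside the rule were graded across the same cells. MAF, a transcription factor of activated helper cells, ran the opposite way to RGS10, from a median of 49.3 CPM at 2 or more CCR7 UMIs to 89.5 CPM at 1 CCR7 UMI and 179 CPM in cells with LEF1 and no CCR7. ICOS, a costimulator induced by activation, was nearly level inside the gate at 138 and 150 CPM and stood at 211 CPM in cells with LEF1 and no CCR7. ICOS reached 291 CPM in the cells with CTLA4. ZNF536, a zinc finger gene, went from 125 to 91.0 and 37.8 CPM. The edge at 1 CCR7 UMI therefore lay on a gradient, and these medians were not tested because the cells were sorted on the same molecules.

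The share of CD4 T cells that were naïve was compared between OS and healthy dogs. In healthy dogs it was 27.0% at the lowest, 35.1% at the median and 44.3% at the highest, with a mean of 34.9% ± 7.24 (SD, n = 7). In OS dogs it was 14.6% at the lowest, 39.1% at the median and 45.6% at the highest, with a mean of 34.0% ± 11.1 (SD, n = 10). The groups overlapped over the whole healthy range, and a rank-sum test on the shares (Wilcoxon, exact, two-sided) returned p = 0.962 (n = 7 and 10; adjusted over 2 tests, 0.962). The estimated shift, the median of all pairwise differences between dogs (OS minus healthy), was 0.818 percentage points with a 95% interval from -12.0 to 10.8. A difference of several points in either direction thus lay within the interval. The difference in means had the opposite sign.

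Depth changes the chance of capturing 1 UMI of CD4 or CCR7, so the share was also taken after thinning each barcode to 2000 UMIs. This left out 4600 barcodes (12.8%) of healthy dogs and 5940 (12.3%) of OS dogs that were shallower. Healthy dogs then had a mean of 22.1% ± 5.77 (SD, n = 7), and OS dogs one of 21.9% ± 8.52 (SD, n = 10). The same exact test returned p = 0.740 (adjusted 0.962), with an interval of the shift from -9.05 to 8.65 percentage points. No difference was detectable at either depth.

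The spread within the OS group came from a few dogs. OS dog 10 had 14.6% naïve cells (Clopper-Pearson interval 11.8 to 17.7%) and OS dog 4 had 16.6% (14.1 to 19.2%). Both intervals lay below the lowest healthy dog, at 27.0%, and OS dog 1 was next at 24.9%. The other 7 OS dogs lay between 35.4% and 45.6%. At 2000 UMIs the same pair of dogs was again lowest, at 8.48% for OS dog 10 and 6.94% for OS dog 4.

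**Figure D2:**
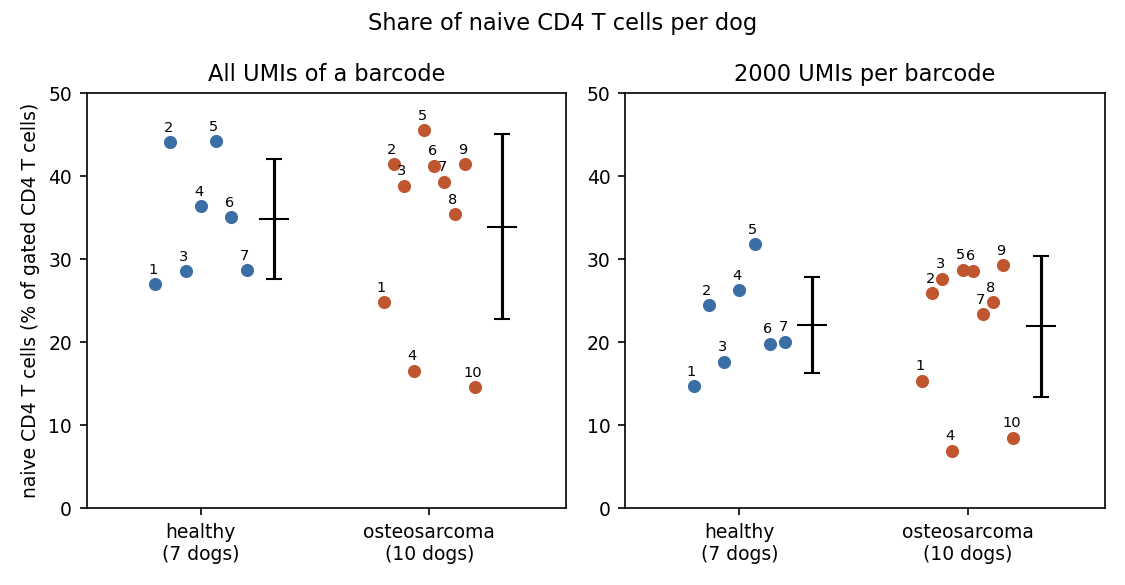
Naïve CD4 T cells as a percentage of gated CD4 T cells in each dog (points, labeled with the dog's number; crossbars, mean ± SD) with all UMIs of a barcode (left) and at 2000 UMIs per barcode (right). OS dogs 1, 4 and 10 lay below all healthy dogs on the left, while the means of 34.9% and 34.0% nearly coincided.

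The recorded age of the dogs, taken from the study's demographic tables, was set against the share at 2000 UMIs. The labels gave no age, so ages were assigned by group and number. This assumes that the labels and the study number the dogs alike, which was not checked. Over all 17 dogs Pearson's r was -0.396 (permutation p = 0.126, adjusted over 3 relations 0.188) and Spearman's rho was -0.228 (permutation p = 0.377, adjusted 0.451). Within the 10 OS dogs r was -0.537 (permutation p = 0.114, adjusted 0.188) and rho was -0.267 (permutation p = 0.451, adjusted 0.451). Within the 7 healthy dogs r was 0.450 (exact permutation p = 0.308, adjusted 0.308) and rho was 0.378 (exact permutation p = 0.406, adjusted 0.451). Without the 2 dogs farthest from the median age, r was -0.487 over all dogs, -0.766 in OS dogs and -0.388 in healthy dogs. The relation did not pass a threshold of 0.05 in any of the 3 sets, and its sign in healthy dogs rested on those 2 dogs. With single dogs left out in turn, r was most extreme without OS dog 5, at -0.648 (permutation p = 0.00944, not adjusted). Without any other single dog the permutation p lay between 0.0948 and 0.442, also not adjusted.

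To ask what sets the naïve CD4 gate apart from the mirrored naïve CD8 gate, the UMIs of both gates were summed per dog and compared within dogs. The study's central memory CD4 list also names LEF1 and CCR7, and the gate put no limit on such cells. Naïve and central memory CD4 cells therefore cannot be told apart in this contrast, and naïve CD4 names the gate. There were 9 dogs (4 healthy and 5 OS) with at least 25 cells in both gates. edgeR's quasi-likelihood test with dog as a block called a gene at a Benjamini-Hochberg adjusted p under 0.01 and an absolute log2 fold change over 0.58, the thresholds of the study. Of 12054 genes tested, 326 (2.70%) were higher and 170 (1.41%) lower in naïve CD4 T cells, with the 9 gate genes left out. The median log2 fold change of all genes was 0.06. Without the dog block the calls numbered 212, and DESeq2 called 194 genes higher and 155 lower.

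Of the lists of memory genes, the memory and effector list had 13 of 25 tested genes higher and 4 lower in the naïve CD4 gate (median log2 fold change 0.90), and the study's central memory list, chosen on these dogs and so not independent evidence of its direction, had 5 of 6 higher (median 1.45). Of 8 tested regulatory T cell genes 3 were higher and 1 lower (median 2.02). Over all genes 2.70% were higher and 1.41% lower, and none of these lists was tested against those shares. The part of central memory cells of the CD4 gate in these differences was not tested. The lower regulatory gene was IKZF2 (Helios), at means of 33.8 CPM in naïve CD4 and 137 CPM in naïve CD8 T cells. Its log2 fold change was -1.96 ± 0.18, and it was lower in 8 of 9 dogs. CD40LG, the ligand through which helper T cells license B cells and dendritic cells, had 40.5, 56.5 and 74.8 CPM (lowest, median and highest of 9 dogs) in naïve CD4 and 0, 2.74 and 17.2 CPM in naïve CD8 T cells. The ranges were separate, and the log2 fold change was 3.68 ± 0.25 (SE; edgeR adjusted p = 2.47e-22, higher in 9 of 9 dogs). MAF had a median of 62.8 CPM against 1.53 CPM in naïve CD8 T cells (log2 fold change 3.18 ± 0.24). The costimulators ICOS and CD28 were higher by 0.94 ± 0.10 and 0.92 ± 0.11, and ICOS ranged from 74.1 to 252 CPM against 46.5 to 99.9 CPM. For ICOS and CD28 each of the 9 dogs showed this direction. Of the 7 genes that the study lists for effector memory CD4 cells, 5 were higher here, with a median log2 fold change of 0.92. This list, too, was chosen on these dogs.

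A further list held receptors of homeostatic cytokines and their signaling genes. Of 17 tested genes of this cytokine receptor list, 5 were higher and 1 lower in naïve CD4 T cells, with a median log2 fold change of 0.60. Over all genes 2.70% were higher and 1.41% lower. IL6R had a median of 62.5 CPM against 11.6 CPM and was higher in 9 of 9 dogs. IL21R was higher by 2.03 ± 0.16, and its ranges of 54.3 to 97.5 and 9.52 to 43.1 CPM were separate. IL4R was higher by 0.99 ± 0.15 and IL7R by 0.70 ± 0.06. IL2RB, the receptor chain shared by IL-2 and IL-15, was the member that was lower, at a median of 16.0 CPM against 93.1 CPM (log2 fold change -2.39 ± 0.16). IL18R1, of the memory and effector list, was higher by 2.09 ± 0.22. The direction of IL6R, IL21R, IL4R, IL7R and IL18R1 was shown by 9 of 9 dogs each.

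Of 21 tested genes of the naïve and quiescence list 3 were higher and none lower, against 2.70% higher and 1.41% lower over all genes. The list's median log2 fold change was 0.03, and the 3 genes called were IL7R, S1PR1 and MAL. S1PR1 was higher by 0.70 ± 0.10 on the log2 scale. MAL, a membrane protein of T cell rafts, was higher by 2.20 ± 0.28 but ranged from 3.42 to 123 CPM among dogs in naïve CD4 T cells. GPR183, which guides lymphocytes along oxysterols within lymphoid tissue, was higher at a median of 83.5 against 21.4 CPM (log2 fold change 1.97 ± 0.15).

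The 6 genes that the study lists for naïve CD4 cells and that were testable split in this contrast. COL6A5, a collagen chain, was higher by 2.02 ± 0.15 and ZNF536 by 1.53 ± 0.12 on the log2 scale. LTB (lymphotoxin beta) and CSTA differed by 0.54 ± 0.05 and 0.53 ± 0.08, under the fold threshold, although all 9 dogs showed more of each in naïve CD4 T cells. TNFSF8 (CD30 ligand) had means of 254 and 226 CPM in naïve CD4 and naïve CD8 T cells, a log2 fold change of 0.16 ± 0.07 that was not called, with 8 of 9 dogs on the side of naïve CD4 cells. RGS10 had medians of 360 CPM in naïve CD4 and 451 CPM in naïve CD8 T cells, a log2 fold change of -0.24 ± 0.07 that was not called, though all 9 dogs had more of it in naïve CD8 cells. CD52, a small glycoprotein of the lymphocyte surface on the study's central memory list, was higher by 1.80 ± 0.10. CD52 was detected at 2000 UMIs in 37.6% of naïve CD4 and 13.7% of naïve CD8 T cells.

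Other genes with large differences were TSHZ2, SGIP1, SAMHD1 and SNX9. TSHZ2, a zinc finger homeobox gene, had 26.0 to 68.7 CPM in naïve CD4 against 0 to 7.65 CPM in naïve CD8 T cells. SGIP1, an endocytosis adaptor best known in neurons, had 10.5 to 64.0 CPM in naïve CD4 T cells, while naïve CD8 T cells, whose sums were shallower, held 1 UMI in all and at most 1.53 CPM. SAMHD1, which degrades deoxynucleotides, was at a median of 96.1 against 3.88 CPM (log2 fold change 3.52 ± 0.20). SNX9, a sorting nexin, was at 111 against 10.7 CPM (log2 fold change 2.57 ± 0.15). All of SAMHD1, SNX9, TSHZ2 and SGIP1 were higher in 9 of 9 dogs. The gene ENSCAFG00000007461, which has no symbol in the files and was picked after its values were seen, ran the other way, with medians of 44.5 CPM in naïve CD4 T cells of all 17 dogs and 618 CPM in naïve CD8 T cells.

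Killer cell genes were lower in naïve CD4 T cells. All 6 tested markers of cytotoxic cells were lower, with a median log2 fold change of -2.94. CTSW (cathepsin W), a protease of cytotoxic lymphocytes, showed this most evenly, at 7.53 to 26.0 CPM in naïve CD4 and 71.4 to 223 CPM in naïve CD8 T cells (log2 fold change -3.47 ± 0.12, lower in 9 of 9 dogs). The lectin receptor KLRK1 had medians of 1.18 and 28.6 CPM, yet it ranged from 0 to 103 CPM among naïve CD8 sums and was lower in 7 of 9 dogs. GZMK (granzyme K) was lower in 6 of 9 dogs, at medians of 5.33 and 19.4 CPM, and its call was lost with DESeq2. KLRD1, KLRB1 and GZMB were called at -4.37 ± 0.40, -2.83 ± 0.35 and -2.65 ± 0.36. These 3 calls were lost when only cells of 3000 to 8000 UMIs were used. That fit held 6 dogs in place of 9, so depth and the number of dogs changed together. CTSW thus differed evenly across dogs, and KLRK1 and GZMK did not.

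Transcription factors of the lineages divided as well. RUNX1 was higher in naïve CD4 T cells by 0.90 ± 0.06 and RUNX3, a factor of the CD8 lineage, was lower by a log2 fold change of -1.11 ± 0.21 (lower in 8 of 9 dogs). IKZF3 (Aiolos) was lower at a median of 120 against 403 CPM (log2 fold change -1.55 ± 0.08). Of 14 tested lineage regulators 4 were higher and 3 lower, against 2.70% higher and 1.41% lower over all genes. Of the 5 testable genes that the study lists for naïve CD8 cells, 4 were lower in naïve CD4 T cells, namely ADGRG1, IL2RB, NBEA and ITGA1. That list was also chosen on these dogs, so its direction is not independent evidence. ITGA1, the collagen-binding integrin alpha chain, stood at 334 to 635 CPM even in naïve CD4 T cells and at 658 to 1185 CPM in naïve CD8 T cells.

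Of 7 tested genes of the myeloid list 2 were higher and none lower in naïve CD4 T cells (median log2 fold change 0.98), and 4 of the 7 had positive values. S100A8, the most abundant of them, had means of 488 and 531 CPM in naïve CD4 and naïve CD8 T cells and was not called. VCAN (versican) was higher in naïve CD4 T cells by 1.93 ± 0.26 and LYZ by 1.31 ± 0.29 on the log2 scale. The call of VCAN was lost in the 4 healthy dogs alone, without the dog block and in cells of 3000 to 8000 UMIs, where only 6 dogs remained. The call of LYZ was lost in 5 alternatives, among them the removal of putative doublets, where LYZ was at 0.28. In the 4 healthy dogs alone LYZ was called lower in naïve CD4 T cells, at -0.65. The myeloid list summed to 516 to 1708 CPM in naïve CD8 T cells of healthy dogs and to 319 to 608 CPM in those of OS dogs, with 3 of the 8 genes at 0 in the healthy dogs and 1 in the OS dogs. The part of these transcripts in the other differences was not tested. Further calls lost in 1 group were IL4R, TRAT1, MAL and PTPN13, in the 4 healthy dogs alone, and RUNX3, in the 5 OS dogs alone. Each of these fits held fewer dogs than the main fit, so the group and the number of dogs cannot be told apart. Without the dog block the calls of IL7R, MAL and GZMK were lost.

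**Figure D3:**
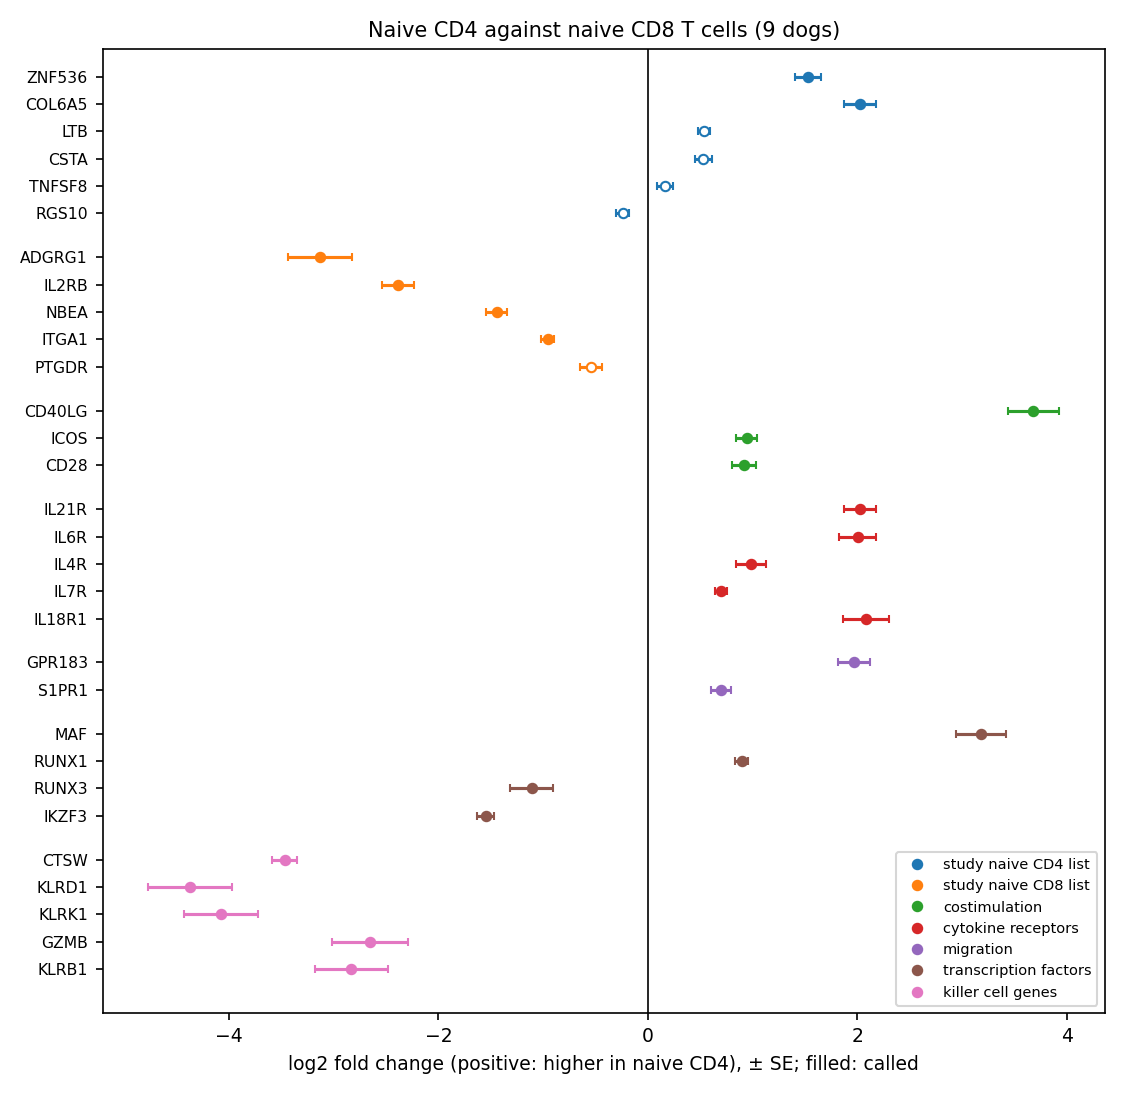
Log2 fold change between naïve CD4 and naïve CD8 T cells of the same 9 dogs (points, edgeR estimate; bars, ± SE; filled points, called). The genes drawn are a selection, in which CD40LG at 3.68 and MAF at 3.18 lay farthest to the right, while CTSW and the killer lectin receptors KLRD1 and KLRK1 lay beyond -3 on the left and RGS10 and TNFSF8 stood close to 0.

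The second comparison set naïve CD4 T cells against the 1891 CD4 T cells with no UMI of LEF1 or CCR7, in all 17 dogs. Of 12838 genes tested with the same model, 951 (7.41%) were higher and 1152 (8.97%) lower in naïve CD4 T cells, and the median log2 fold change of all genes was 0.06. Genes that are expressed along with LEF1 or CCR7 can differ through the gate itself. CTLA4 and CCL5 were barred from the naïve gate but not from the other, so genes expressed with them can also differ through the gate.

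All 6 testable genes of the study's naïve CD4 list were higher, which is not independent evidence, since the study chose that list on these dogs. ZNF536 had 30.9, 113 and 254 CPM (lowest, median and highest dog) against 0, 0 and 2.09 CPM, a log2 fold change of 8.02 ± 0.21 that rests on 4 UMIs in the LEF1-CCR7- cells. COL6A5 was higher by 7.00 ± 0.19, with 8 UMIs in the LEF1-CCR7- cells. RGS10 was higher by 4.45 ± 0.13 (edgeR adjusted p = 6.00e-28) and CSTA by 3.13 ± 0.14. TNFSF8 had a median of 213 against 69.0 CPM (log2 fold change 1.82 ± 0.07), and LTB was higher by 1.07 ± 0.05. All of these genes had the higher level in the naïve cells of 17 of 17 dogs.

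The naïve and quiescence program was higher in part. Of its 21 tested genes, 10 were higher and 0 lower, with a median log2 fold change of 0.34. BACH2, a repressor that holds back effector genes, had medians of 924 and 110 CPM (log2 fold change 2.89 ± 0.10). SATB1, an organizer of chromatin in T cells, was higher by 2.14 ± 0.11 and TCF7 by 1.70 ± 0.09. The survival gene BCL2 was higher by 1.58 ± 0.08, and the kinase TXK by 2.41 ± 0.09. FOXP1, which maintains quiescence, was higher by 1.41 ± 0.05, and FOXO1, which controls IL7R, by 0.60 ± 0.06, close to the fold threshold, and its call was lost with DESeq2. In each of these genes 17 of 17 dogs agreed in direction, whereas IL7R (log2 fold change 0.34 ± 0.08) and S1PR1 (-0.23 ± 0.06) were not called.

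Of 19 tested genes of the T cell receptor complex and its proximal signaling 2 were higher and 3 lower (median log2 fold change -0.16). Of 17 genes of the cytokine receptor list 3 were higher and 4 lower. Over all genes 7.41% were higher and 8.97% lower, and neither list was tested against these shares. IGF1R, the receptor of insulin-like growth factor 1, had medians of 140 and 9.56 CPM (log2 fold change 4.07 ± 0.18). TGFBR2 was higher by 1.59 ± 0.06 and IL21R by 2.02 ± 0.11. The T cell receptor adaptor TRAT1 was higher by 2.39 ± 0.12. RALGPS2, an exchange factor for Ral GTPases, went from a median of 11.6 to 379 CPM, a log2 fold change of 4.48 ± 0.15. NKAIN2 had 29.6 to 265 CPM in naïve CD4 T cells and at most 6.98 CPM in the LEF1-CCR7- cells. The gene ENSCAFG00000024259, without a symbol and picked after its values were seen, had 98.6 to 471 CPM in naïve CD4 T cells and at most 2.54 CPM in LEF1-CCR7- cells.

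Memory and effector genes were lower almost without exception, as 24 of 27 tested members of that list were called lower and 0 higher (median log2 fold change -2.08). ITGB1, the integrin chain that marks antigen-experienced T cells, had 44.8 to 126 CPM in naïve CD4 T cells against 226 to 1309 CPM (log2 fold change -2.93 ± 0.12). LGALS3 (galectin 3) was at 30.4 against 349 CPM, and GZMK at 9.73 against 122 CPM. The ranges of ITGB1, LGALS3 and GZMK were each separate between the gates. KLRB1 was lower by a log2 fold change of -2.99 ± 0.33 and in 14 of 17 dogs.

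The study's lists for memory CD4 cells, which were also chosen on these dogs, split in direction. Of the 6 testable central memory genes 4 were higher in the naïve gate, and of these EFHC2 (0.59 ± 0.12) lost its call in 5 alternatives. CTPS1 (a CTP synthase needed by dividing lymphocytes) had medians of 175 and 27.9 CPM and CARMIL1 of 119 and 21.0 CPM. TSHZ2 had a log2 fold change of -0.04 ± 0.14 and was not called. That central memory list also names LEF1 and CCR7, and the gate put no limit on cells of that kind, so naïve and central memory CD4 cells cannot be told apart here. Of the 7 effector memory genes 4 were lower (median log2 fold change -0.60). MAF was lower by a log2 fold change of -2.47 ± 0.08, the ion exchanger SLC9A9 by -1.27 ± 0.05, ICOS by -1.15 ± 0.08 and CD28 by -0.60 ± 0.07. CD28 lay close to the fold threshold, and its call was lost in the 10 OS dogs alone. CD40LG had medians of 64.0 and 57.9 CPM and was not called. The phosphatase PTPN13, which the study lists for the Th-like subsets of effector memory cells, was lower by a log2 fold change of -2.81 ± 0.14.

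Most genes of migration were lower. Of 19 tested genes for lymph node entry, exit and migration 12 were lower and 1 was higher, with a median log2 fold change of -0.94. CCR4, the receptor of skin-homing helper cells, was called lower on few molecules (6 UMIs in naïve CD4 and 21 UMIs in LEF1-CCR7- cells), and the call was lost in 2 alternatives, DESeq2 among them.

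Regulatory and cycling genes were also lower in the naïve gate. Of 9 tested regulatory T cell genes 7 were lower and 0 higher. FOXP3, the defining factor of regulatory T cells, had 8 UMIs over all naïve CD4 T cells and 40 UMIs over LEF1-CCR7- cells (log2 fold change -3.20 ± 0.52). IKZF2 (Helios) was at a median of 37.3 against 348 CPM, and IL2RA, the high-affinity chain of the IL-2 receptor, at 4.59 against 21.0 CPM. Of 4 tested cycling markers 3 were lower, among them MKI67 at a median of 1.18 against 27.9 CPM (log2 fold change -3.64 ± 0.36). MKI67 was lower in 17 of 17 dogs.

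Interferon-stimulated genes gave a further group, with 13 of 24 tested entries lower and 0 higher (median log2 fold change -0.97). ISG20 was at a median of 34.0 against 260 CPM, ISG15 at 5.75 against 33.0 CPM and OAS1 at 7.15 against 35.7 CPM. ISG20, ISG15 and OAS1 were lower in 17 of 17 dogs. Ribosomal protein genes ran the other way, with 10 of 58 higher and 0 lower (median 0.45), for example RPL5 by 0.72 ± 0.04. S100A8 was lower by a log2 fold change of -2.54 ± 0.11, and the other 6 tested genes of the myeloid list were not called.

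**Figure D4:**
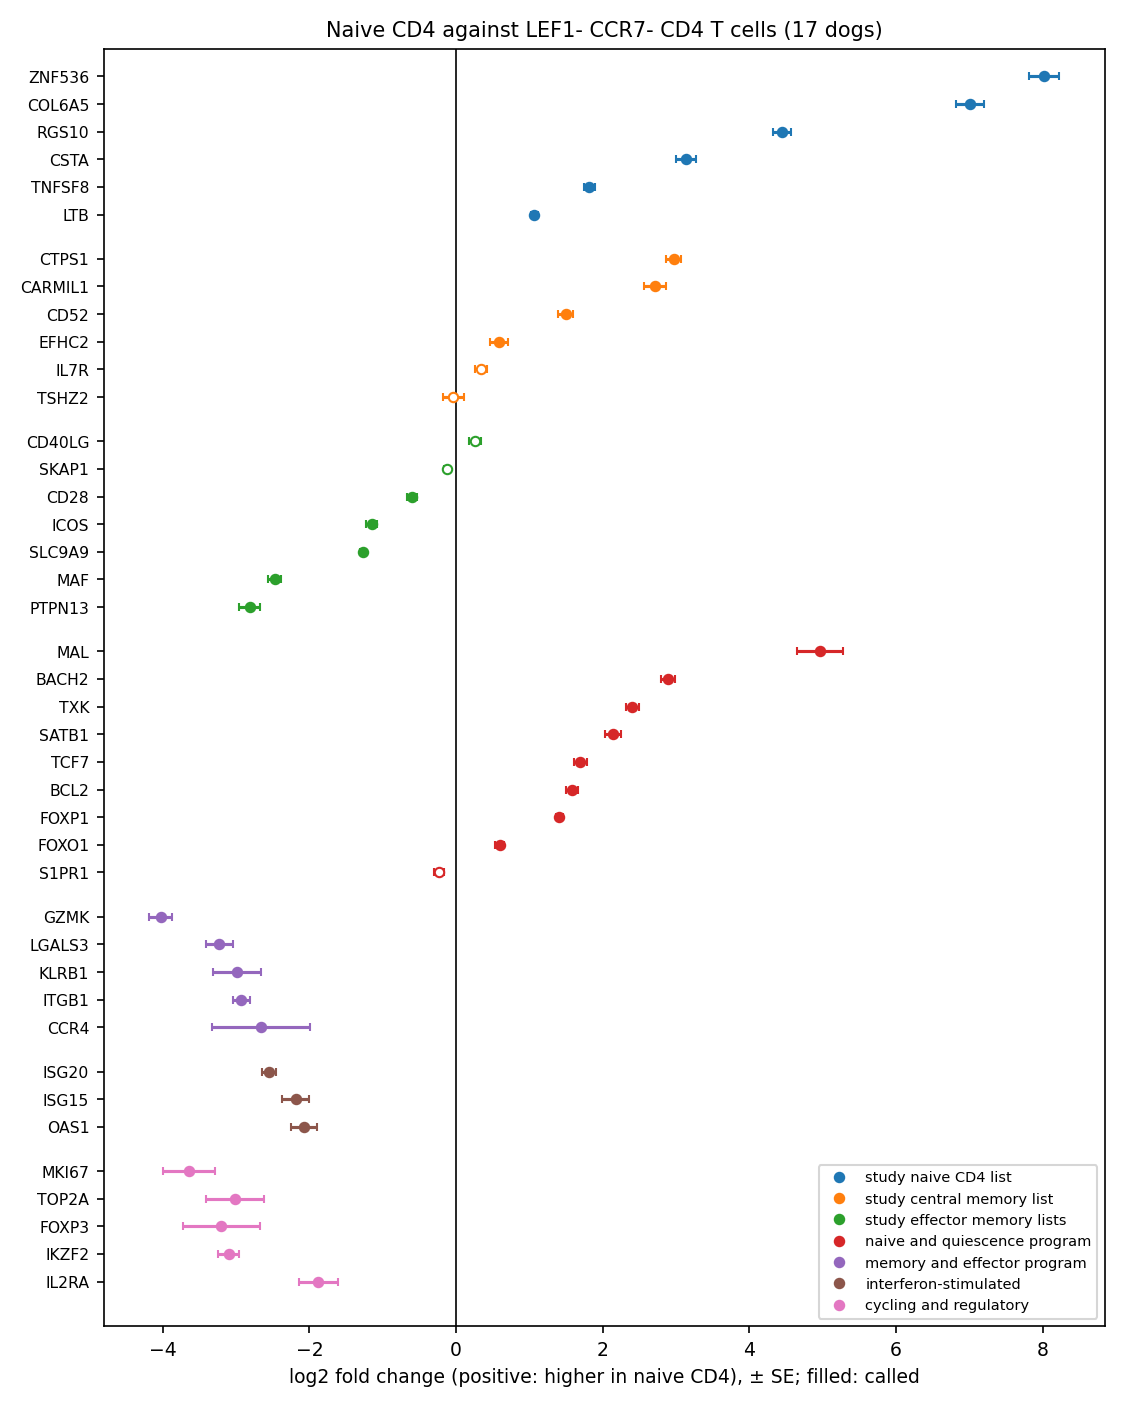
Log2 fold change between naïve CD4 and LEF1-CCR7- CD4 T cells of the same 17 dogs (points, edgeR estimate; bars, ± SE; filled points, called). Of the selection of genes drawn, most of the naïve lists lay to the right, up to 8.02 for ZNF536, and the memory and effector, interferon, cycling and regulatory genes lay to the left, down to -4.03 for GZMK.

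The last comparison asked whether naïve CD4 T cells of OS dogs differed in expression from those of healthy dogs. Of 12296 genes tested over 17 dogs, edgeR called 0 (0.0%), while 572 had an unadjusted p under 0.05. DESeq2 called 1 gene, FN1, and had 438 at an unadjusted p under 0.05. The median log2 fold change of all genes was -0.01. The other genes named for OS and healthy dogs had an edgeR adjusted p of 0.988 or more.

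FN1, which encodes fibronectin, an adhesive glycoprotein of plasma and matrix, was the gene nearest to a call. It had 3.86, 7.61 and 16.4 CPM in healthy and 12.14, 28.3 and 59.8 CPM in OS dogs (lowest, median and highest). The means were 8.62 ± 3.89 CPM (SD, n = 7) and 33.1 ± 17.4 CPM (SD, n = 10), and the groups overlapped only between 12.14 and 16.4 CPM. The log2 fold change was 1.96 ± 0.32 with an edgeR adjusted p of 0.0319, above the threshold of 0.01. It was called without healthy dog 6 (adjusted p = 0.00805) or without OS dog 3 (adjusted p = 0.00827). With putative doublets removed the log2 fold change of FN1 was 1.04 and the adjusted p was 1.00.

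None of the 7 tested genes of the myeloid list was called between OS and healthy dogs. FN1 and SERPINA1 are outside that list, but the study lists FN1 for CD4- and CD4+ monocytes and SERPINA1 for neutrophils. FN1 stood at 125 to 1930 CPM in the myeloid reference cells, gated on S100A12. All 7 tested myeloid markers had a positive log2 fold change in naïve CD4 T cells of OS dogs, with a median of 1.42. Over all 12296 genes 5943 were positive. The unadjusted p was under 0.05 for 4 of the 7 markers, namely LYZ, VCAN, FCER1G and CD68. The myeloid list without S100A8, a sum chosen after the values were seen, came to 32.3, 72.0 and 471 CPM in healthy and 42.3, 577 and 1452 CPM in OS dogs, again with FCN1 at 0. LYZ was at a log2 fold change of 1.62 ± 0.70. SERPINA1 (alpha-1 antitrypsin), with a log2 fold change of 2.04 ± 0.55, had medians of 3.81 and 13.6 CPM in naïve CD4 T cells of healthy and OS dogs and of 1650 CPM in myeloid cells. The part of myeloid RNA in the FN1 and SERPINA1 values was not tested beyond the removal of putative doublets.

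CARMIL1 and NFKBIA also had small p. CARMIL1, a regulator of actin capping, was at 167 ± 50.3 CPM (SD, n = 7) in healthy and 88.4 ± 42.8 CPM (SD, n = 10) in OS dogs, a log2 fold change of -0.86 ± 0.21. NFKBIA, the inhibitor of NF-kB, was at mean levels of 16.2 and 32.2 CPM (log2 fold change 0.97 ± 0.26). The study lists NFKBIA for CD4+ monocytes. SH3RF3, DOCK9, NMNAT1, HHAT and TMEM87B had negative log2 fold changes between -1.33 and -0.41. In SH3RF3, DOCK9 and TMEM87B healthy dog 2 stood apart, at 180, 276 and 106 CPM against 83.5, 154 and 70.8 CPM in the next healthy dog. Within CARMIL1 and NFKBIA the groups overlapped.

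RGS10, CSTA and IL7R, which the gate did not use, were not called. RGS10 was at means of 335 and 347 CPM in healthy and OS dogs (log2 fold change 0.09 ± 0.15) and CSTA at 360 and 304 CPM (log2 fold change -0.22 ± 0.20). IL7R was at means of 1133 and 1241 CPM. Of the 22 tested interferon-stimulated entries 20 had positive values with a median log2 fold change of 0.22, and 4 had an unadjusted p under 0.05, among them IFI44 at 0.41 ± 0.19. Glucocorticoid-responsive genes were positive in 11 of 13 (median 0.31), led by TXNIP at 0.55 ± 0.18, and immediate early genes in 13 of 16 (median 0.28). The naïve and quiescence list had a median of -0.04, and MAL was at 1.09 ± 0.44. No member of these lists was called. Over all 12296 genes tested, 5943 had positive values and 572 had an unadjusted p under 0.05. Genes of a list can move together within a dog, and the list counts were not tested.

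**Figure D5:**
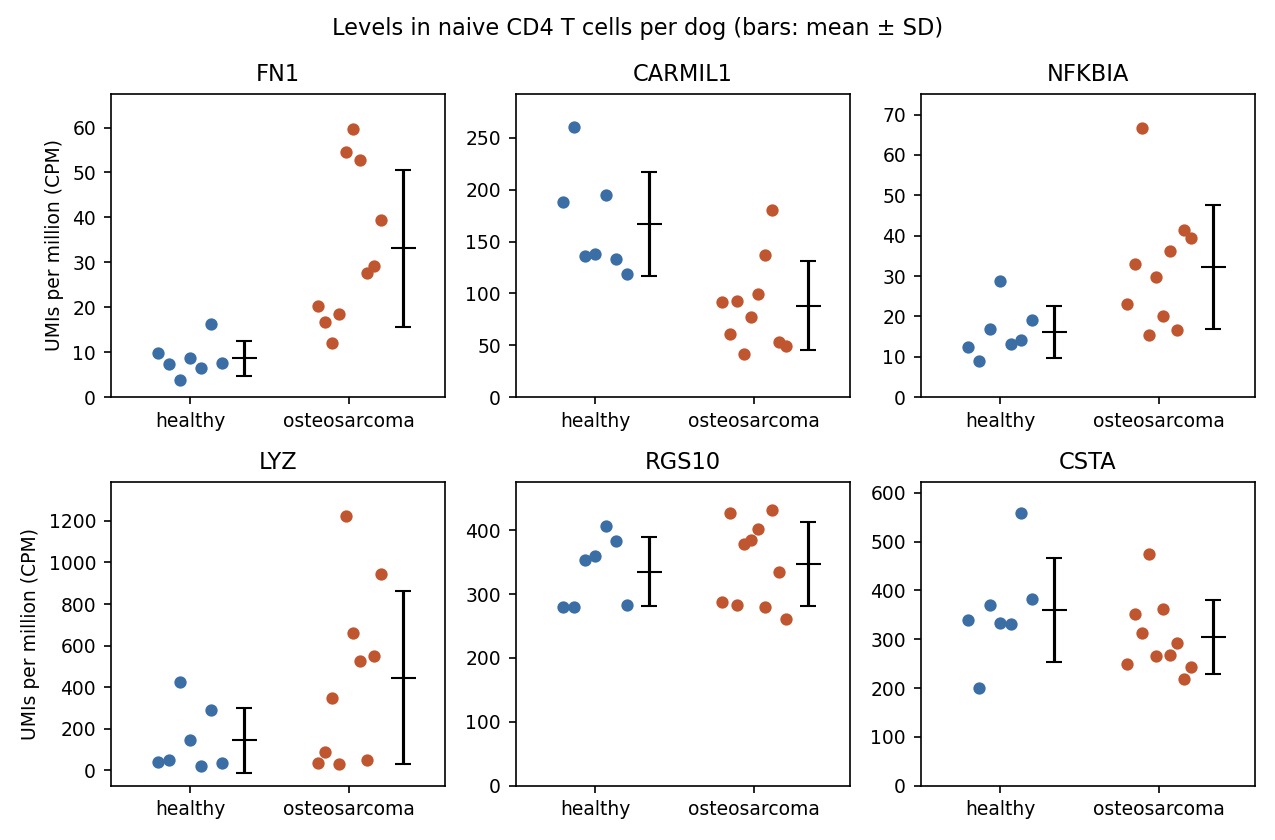
Level of 6 genes in the naïve CD4 T cells of each dog, in CPM (points; bars, mean ± SD). FN1 had medians of 7.61 and 28.3 CPM in healthy and OS dogs with little overlap, while LYZ, CARMIL1, NFKBIA, RGS10 and CSTA overlapped between the groups.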

How the data were processed

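The authors deposited, for each dog, a matrix of UMI counts per gene and barcode (raw counts, no normalization) made with Cell Ranger 7.0.0 on CanFam3.1 from 10x 3′ libraries. Seurat is also named in the submitters' processing notes, without a version. The study aligned reads with and without introns, and which of these was deposited is not given in the sources used here. Groups came from the labels. The limits on genes, UMIs and mitochondrial percentage follow the study. Members, gene lists and tests were chosen with earlier results of these data known.

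Counts were summed per dog and gate, with minimums of 25 cells for a dog and of 10 counts for a gene. Sums were tested in edgeR 4.0.16 (quasi-likelihood, TMM, R 4.3.3) at adjusted p under 0.01 and absolute log2 fold change over 0.58, with DESeq2 1.42.0 as an alternative. The 9 gate genes entered library sizes but no test. Sums of naïve CD4 T cells held 405499 to 2876410 UMIs per dog. CPM values are plain UMIs per 1000000 of a sum, whereas fold changes use TMM. Dog was a block where both gates came from the same animal. Shares were compared by exact two-sided Wilcoxon tests, whose smallest p for 7 against 10 dogs is 0.000103. Thinning used 2000 UMIs and a fixed seed. Intervals are 95%. Clopper-Pearson intervals cover counting error only, while the interval of the shift comes from the exact rank-sum distribution over dogs.

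Named genes were the fixed markers, all members of the study's lists, and in each comparison the called list members and genes of largest fold at minimum levels of 10 and 20 CPM, or the smallest p where nothing was called. Not all of them are printed, and members of lists that were not called are given where they bear on a count. PTPN13 was first placed on the effector memory list by mistake and was left out of its counts. The scripts were tested on simulated data with known changes. Python 3.11.15, scipy 1.17.1 and scanpy 1.11.5 were used for gates, shares and doublets. Alternatives were the tool, scaling, gene filter, doublets, depth, block, age and single dogs left out. Sequences, coordinates and some genes of the lists are not reported here.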

Additional observations from a re-analysis of the deposited data

Results flagged for a closer look

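Among 56 groups of dogs examined, 6 genes had 1 dog whose gap to the next dog exceeded Dixon's 95% limit in naïve CD4 T cells. That limit is set for about 1 in 20 groups of independent, normally distributed values. Levels here were plain CPM, and genes can move together within a dog. SH3RF3, DOCK9, TMEM87B, NFKBIA and SERPINA1 were also named for small p between OS and healthy dogs. The 1 in 20 is therefore not a chance rate for this set. Healthy dog 2 was the dog that stood apart in 4 of the 6 genes. EFHC2, of the study's central memory list, was at 157 CPM in healthy dog 2 and at 84.6 CPM in the next dog. SH3RF3 was at 180 CPM in healthy dog 2 against 83.5 CPM in the next. DOCK9, an exchange factor for CDC42, was at 276 CPM against 154 CPM. TMEM87B was at 106 CPM against 70.8 CPM. In OS dogs, NFKBIA was at 66.8 CPM in OS dog 3 against 41.5 CPM in the next, and SERPINA1 was at 61.4 CPM in OS dog 5 against 25.2 CPM.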

How the results depend on the processing

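The share difference between OS and healthy dogs stayed past no threshold, but its sign was not stable. By the gate the difference in means (OS minus healthy) was -0.932 percentage points, 0.553 in the replicate block over dogs 1 to 7 (exact signed-rank p = 0.812), and -2.24 to 1.22 with single dogs left out. At 2000 UMIs it was -0.181, 0.0566 without putative doublets, 0.270 in the replicate block (exact signed-rank p = 0.578), and -1.41 to 1.48 with single dogs left out. The correlation with age ranged from -0.648 (without OS dog 5) to -0.201 (without OS dog 4). Numbers of healthy and OS dogs are only names: deviations of same-numbered dogs correlated between -0.469 and 0.155, and 0 of 7 correlated best with their own number.

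Genes called between OS and healthy dogs numbered 0 in 7 alternatives and 1 with DESeq2, and 0 to 1 with single dogs left out, FN1 being the gene called. Of the 7, a minimum of 10 cells per dog kept the same 17 dogs and so could not differ from the main fit. The replicate block held 14 dogs, paired by numbers that are only names. Between naïve CD4 and naïve CD8 T cells the 496 calls became 212 with no replicate block and 286 in healthy dogs alone (4 dogs), and 349 to 515 otherwise. Against LEF1-CCR7- cells the 2103 calls ranged from 1477 to 2198. Among named genes, LYZ turned to -0.65 between naïve CD4 and naïve CD8 T cells in healthy dogs, and TSHZ2 to 0.14 against LEF1-CCR7- cells in OS dogs. Among values recomputed for named genes that were called, the call was lost in 29 of 441 against naïve CD8 T cells and in 14 of 609 against LEF1-CCR7- cells. EFHC2 and FOXO1, against LEF1-CCR7- cells, sat near the fold threshold and lost the call in 5 and 4 alternatives. GZMK, KLRB1, PPFIA2 and IKZF2 lost it with DESeq2 against naïve CD8 T cells. The causes were not tested. Depth limits genes of a few CPM, where a sum holds single UMIs.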

Other observations

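Healthy dogs differed from each other in a few genes of naïve CD4 T cells. Among 3309 genes with a mean of at least 50 CPM, the median SD of log2 (CPM + 1) over the 7 healthy dogs was 0.331. CABCOCO1, a gene of the cilium and centrosome, had the largest SD, at 2.04, and ranged from 4.91 CPM in healthy dog 2 to 180 CPM in healthy dog 3. ANK3, the membrane scaffold ankyrin G, ranged from 2.32 to 83.0 CPM (SD 1.62). SPAG16, an axonemal gene, ranged from 5.75 to 126 CPM (SD 1.46). DPP4, which encodes the surface peptidase CD26, ranged from 16.5 to 142 CPM (SD 1.06). RGS1, a G protein regulator of activated lymphocytes, ranged from 35.4 to 314 CPM (SD 1.18). Healthy dog 2 was the highest dog in ANK3, SPAG16, PRKX, SH3RF3 and DLGAP2 and the lowest in CABCOCO1. LYZ was also on this list, with an SD of 1.65. With 1 library per dog, a difference between dogs and a difference between libraries cannot be told apart.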
